A study of Mus musculus with 12 samples.

Results

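The 8 genes Ankrd1, Xirp1, Xirp2, Fhl1, Fhl2, Rcan1, Csrp3 and Cmya5 were followed by name through mouse heart RNA-seq, 8 of the 18604 genes measured in any comparison. They code for proteins of the heart muscle's stretch-sensing and calcineurin machinery, and all 8 were measured in all 12 libraries. The hearts fell into 4 groups of 3 libraries. BCAA-free TAC hearts came from mice on a diet from which the branched-chain amino acids (BCAA) leucine, isoleucine and valine had been removed, taken 1 week after transverse aortic constriction (TAC), a narrowing of the aorta that raises the pressure against which the left ventricle pumps. Control diet TAC hearts had the same surgery on a diet whose BCAA content matched ordinary chow. BCAA-free sham and control diet sham hearts came from mice on those diets after sham surgery. Feeding began 4 days before surgery and went on until the hearts were taken. All mice were males of the strain C57Bl/6J at 12 weeks of age, with no transgene or other agent named. The labels do not state whether a group's replicates are separate animals; the p-values therefore reflect variation among libraries alone, which may be technical.

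In a muscle cell the giant protein titin spans from the Z-disc, where actin filaments are anchored, to the middle of the sarcomere, and several proteins docked on it or on the Z-disc also travel to the nucleus. Ankrd1 is an ankyrin repeat protein that binds titin and acts as a transcriptional cofactor. Fhl1, Fhl2 and Csrp3 are built from LIM domains, zinc-binding folds that hold other proteins together. Xirp1 and Xirp2 bind actin filaments at the intercalated discs that join cardiomyocytes. Calcineurin is the calcium-activated phosphatase that sends NFAT transcription factors to the nucleus and drives cardiac growth under load, and Rcan1, which inhibits it, is itself an NFAT target. Cmya5, or myospryn, is a large protein near the Z-disc that binds desmin and calcineurin.

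The promoters of 5 of these genes are shown first, because the members differed in how they moved and Rcan1 and Fhl1 have 2 RefSeq starts each, with different motif matches. The windows run from 250 bases before to 50 bases after each RefSeq start (GRCm38.p6), 5′ to 3′ on the gene's strand. Capitals mark matches on either strand to any of 5 motifs. The core of an NFAT site was searched as GGAAA. The M-CAT element, which TEAD factors bind, was searched as CATTCC. The motif of the cardiac GATA factors was searched as AGATAA. The others were the CArG box, bound by SRF, and the MEF2 box. RefSeq windows were found for 7 members, 11 windows in all. They do not cover every start: in the GENCODE annotation, coding transcripts also begin at chrX:56731787 for Fhl1 and at chr16:92470867 for Rcan1. Both positions lie upstream of the windows of those genes and were not searched, so first, second and upstream refer to the windows alone.
Ankrd1, chr19:36119795-36120094, minus strand: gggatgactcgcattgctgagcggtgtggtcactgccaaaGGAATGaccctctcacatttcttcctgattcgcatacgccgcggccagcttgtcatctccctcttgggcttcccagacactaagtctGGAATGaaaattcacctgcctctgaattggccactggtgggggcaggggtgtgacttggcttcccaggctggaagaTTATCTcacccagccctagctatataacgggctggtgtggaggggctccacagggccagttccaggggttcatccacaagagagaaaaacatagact
Xirp2, chr2:67445752-67446051, plus strand: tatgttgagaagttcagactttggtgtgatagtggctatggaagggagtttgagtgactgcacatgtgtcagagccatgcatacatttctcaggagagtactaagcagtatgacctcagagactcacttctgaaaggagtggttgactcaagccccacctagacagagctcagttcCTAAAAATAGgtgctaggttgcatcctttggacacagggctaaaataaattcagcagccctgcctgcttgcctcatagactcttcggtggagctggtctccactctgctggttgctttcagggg
Fhl1 first start, chrX:56779433-56779732, plus strand: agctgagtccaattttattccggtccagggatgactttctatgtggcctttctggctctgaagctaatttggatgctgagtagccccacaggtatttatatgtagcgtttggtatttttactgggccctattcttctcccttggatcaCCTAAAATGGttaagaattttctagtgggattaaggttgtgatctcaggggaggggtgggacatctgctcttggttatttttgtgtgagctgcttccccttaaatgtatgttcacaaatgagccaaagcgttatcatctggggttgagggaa
Fhl1 second start, chrX:56786277-56786576, plus strand: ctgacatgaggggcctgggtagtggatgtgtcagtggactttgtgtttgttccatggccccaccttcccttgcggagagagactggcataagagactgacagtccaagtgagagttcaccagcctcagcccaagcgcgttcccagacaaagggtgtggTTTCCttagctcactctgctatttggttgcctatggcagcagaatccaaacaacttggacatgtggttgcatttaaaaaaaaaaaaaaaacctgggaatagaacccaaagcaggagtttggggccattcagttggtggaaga
Rcan1 upstream start, chr16:92466120-92466419, minus strand: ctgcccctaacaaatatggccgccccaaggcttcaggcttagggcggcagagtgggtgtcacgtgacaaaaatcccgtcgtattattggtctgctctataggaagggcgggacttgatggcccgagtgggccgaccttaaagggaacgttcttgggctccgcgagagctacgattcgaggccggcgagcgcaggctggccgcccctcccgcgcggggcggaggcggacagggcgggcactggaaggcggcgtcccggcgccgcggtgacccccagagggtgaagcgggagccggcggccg
Rcan1 internal start, chr16:92400029-92400328, minus strand: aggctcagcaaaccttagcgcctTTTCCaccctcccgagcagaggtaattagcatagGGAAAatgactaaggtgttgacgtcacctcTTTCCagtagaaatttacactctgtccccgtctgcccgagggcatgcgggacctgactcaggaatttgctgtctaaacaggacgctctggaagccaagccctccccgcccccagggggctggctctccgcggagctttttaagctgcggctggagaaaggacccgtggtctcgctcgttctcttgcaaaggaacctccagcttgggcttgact
Cmya5, chr13:93144675-93144974, minus strand: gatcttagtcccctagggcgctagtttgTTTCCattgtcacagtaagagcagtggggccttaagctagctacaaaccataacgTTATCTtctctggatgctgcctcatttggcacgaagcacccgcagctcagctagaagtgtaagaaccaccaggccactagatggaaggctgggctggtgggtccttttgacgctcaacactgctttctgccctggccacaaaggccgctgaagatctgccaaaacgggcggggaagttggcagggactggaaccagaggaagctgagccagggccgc

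In these windows, with the start base counted as 0, Ankrd1 held M-CAT matches at -210 and -123 and a GATA match at -47. At least 2 M-CAT matches occurred in 1.36% of all 32851 promoter windows. Rcan1's internal start had NFAT cores at -227, -193 and -163, and 9.42% of all windows had 3 or more. Its upstream start had no match to any of the 5 motifs. Xirp2 held a MEF2 box at -74, found in 3.19% of windows, and the first start of Fhl1 a CArG box at -102, found in 1.63%. The second start of Fhl1 had no CArG box and an NFAT core at -92. Of the windows not shown, Fhl2's first start had CArG, GATA and MEF2 matches and its second a CArG match, while the first start of Csrp3 had none and its second an NFAT core. Cmya5 had an NFAT core at -222 and a GATA match at -167, motifs present in 61.3% and 11.2% of all windows. A match describes letters and is not a bound site.

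Libraries held 74206246 to 110452636 reads. The fewest reads of any of the 8 genes in any library were 4763, for which the counting error is 1.45%, so spread between libraries and not depth set the precision. Mitochondrially coded genes took 21.8 to 22.5% of the reads of BCAA-free TAC libraries, 17.9 to 19.9% of control diet TAC, 22.6 to 23.6% of BCAA-free sham and 22.4 to 27.1% of control diet sham libraries. All 9 cardiomyocyte markers were high, while the 6 skeletal muscle markers that were measured in every library summed to at most 971 normalized reads in a library, against at least 4920589 for the cardiomyocyte markers. The structured RNAs Rn7sk, Rmrp and Rpph1, which carry no poly(A) tail, together came to 63.6, 7.79 and 76.1 CPM (scaled to a common library total) in the BCAA-free TAC libraries and to 116 in control diet sham 2, against 2.06 to 19.3 in the other 8. Overlapping genes can share reads, since the strand setting of the counting is not given in the sources used here. This touches Xirp1, which overlaps Cx3cr1, and Fhl2, which overlaps Gm8210.

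The 8 genes ranged widely in abundance. On a scale of normalized reads per kilobase of exon, averaged over the 12 libraries, Ankrd1 stood highest at 76088, place 24 among 14439 protein-coding genes of the nuclear genome. Fhl2 followed at 70265 and Csrp3 at 38162, places 27 and 67. Xirp2 reached 6172 and Cmya5 5973 on the same scale. Fhl1 (3741), Xirp1 (3252) and Rcan1 (2620) were lowest of the 8, yet Rcan1 still held place 1097 of the 14439. Together the members took 0.813, 0.723 and 0.757% of all reads in BCAA-free TAC libraries and 0.851, 1.17 and 1.05% in control diet TAC libraries. In sham hearts they took 0.571, 0.524 and 0.547% on the BCAA-free and 0.497, 0.576 and 0.576% on the control diet. Each TAC library thus held a larger share than each sham library.

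**Figure D1:**
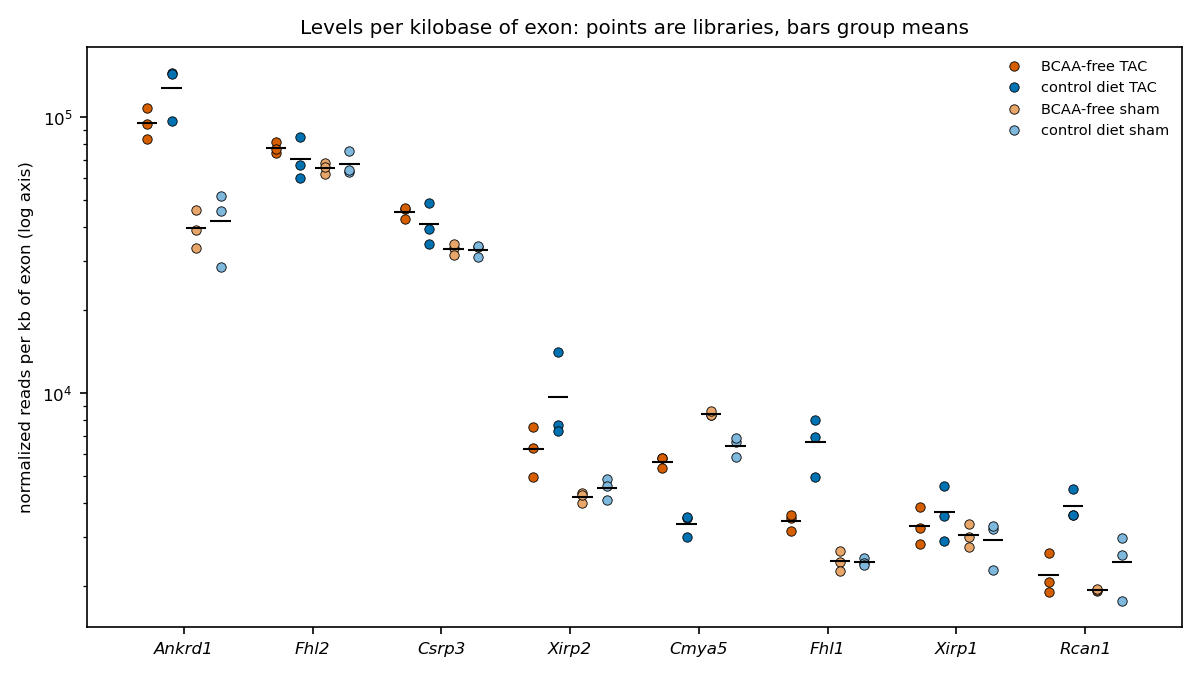
Level of each gene per library in normalized reads per kb of exon (log axis), in the order of the mean over all libraries; points are the 3 libraries of a group and bars the group means. Ankrd1, Fhl2 and Csrp3 lie above the other 5 genes in every library, and the 6 TAC points of Ankrd1 lie above its 6 sham points.

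TAC moved most of these genes, and in more than 1 direction. On the BCAA-free diet Ankrd1, Fhl1, Csrp3 and Fhl2 rose and Cmya5 fell, by limma's moderated test on log2(normalized reads + 1) with Benjamini-Hochberg adjusted p below 0.05. That is 5 of 8 members called, against a background of 7.72% of 17611 genes called in that comparison. On the control diet Ankrd1, Fhl1, Xirp2 and Rcan1 rose and Cmya5 fell, again 5 of 8, where 14.8% of 18305 genes were called. Groups did not overlap for 6 members on each diet, against 28.1% of genes on the BCAA-free diet and 34.8% on the control diet. The median log2 change of the 8 was 0.34 on the BCAA-free diet and 0.50 on the control diet, with medians of 0.01 and -0.02 over all genes tested. Leaving out control diet sham 2 or control diet sham 3 brought the count on that diet to 3. One fit of all 12 libraries with a shared spread called Ankrd1 and Cmya5 on the BCAA-free diet, with limma adjusted p-values of 0.0959 for Fhl1, 0.0585 for Csrp3 and 0.364 for Fhl2. In RNA from whole tissue, fewer cells of a type and less RNA per cell cannot be told apart. The members had been chosen with results of these data known, so these shares describe them and are no test of the list.

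**Figure D2:**
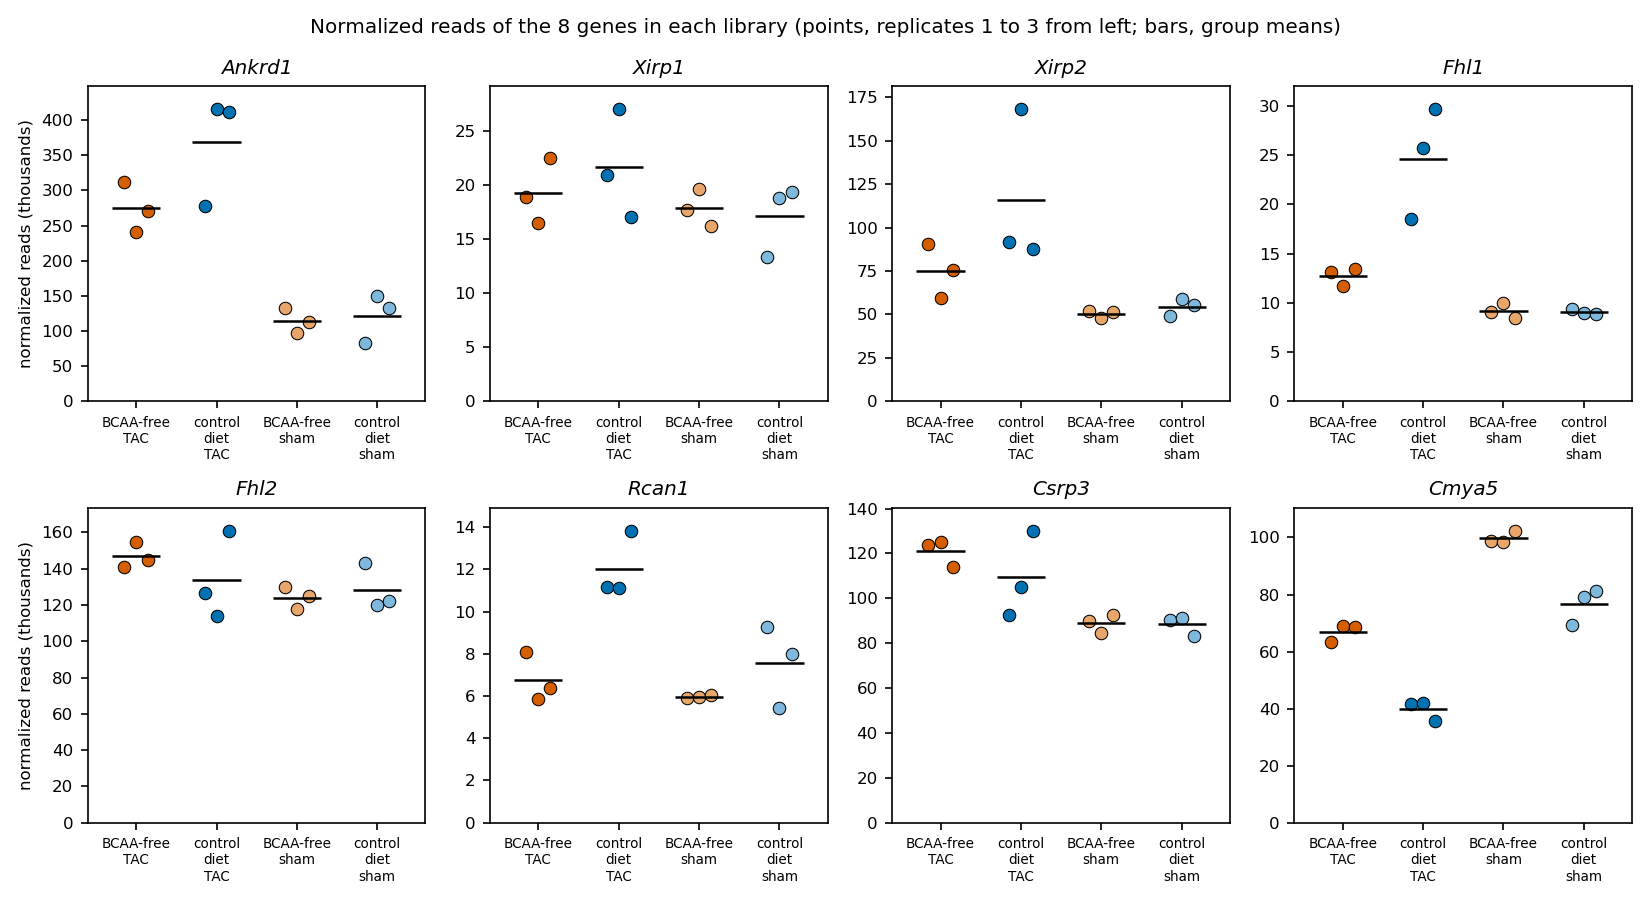
Normalized reads (in units of 1000, linear axis from 0) of each gene in each library; points are replicates 1 to 3 from left to right and bars the group means. Ankrd1, Xirp2 and Fhl1 are highest in control diet TAC hearts, Cmya5 is lowest there, and Xirp1 overlaps across all 4 groups.

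Ankrd1 (GRCm38 chr19:36111961-36120099, minus strand, 8 exons after merging transcripts) gave the largest log2 rise among the members on both diets. It had 311607, 240359 and 271225 normalized reads in BCAA-free TAC hearts, 278188, 415369 and 411869 in control diet TAC hearts, 133236, 96562 and 112466 in BCAA-free sham, and 82725, 149298 and 132191 in control diet sham. All 6 TAC libraries lay above all 6 sham libraries, and the diets overlapped within each surgery. The mean was 274397 ± 35730 in BCAA-free TAC and 114088 ± 18391 in BCAA-free sham hearts (SD, n = 3 each), a log2 fold change of 1.27 ± 0.134 (SE) and a fold of 2.4 (limma adjusted p = 0.00266). On the control diet it averaged 368475 ± 78211 in TAC and 121404 ± 34572 in sham hearts, a log2 change of 1.61 ± 0.239 and a fold of 3.06 (limma adjusted p = 0.00346). Both calls held when any 1 library was left out. Its differences between the diets did not pass: in TAC hearts the log2 difference between the BCAA-free and the control diet was -0.40 ± 0.181 (limma adjusted p = 0.159), and the TAC responses differed by -0.35 ± 0.3 (limma adjusted p = 0.654).

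Among the relatives of Ankrd1, Ankrd2 and Ankrd23 code for the other ankyrin repeat proteins that bind the same region of titin. These genes were picked as relatives after their values were seen. Ankrd2 rose on the control diet by a log2 of 1.73 (limma adjusted p = 0.00982), a call kept without any 1 library, and on the BCAA-free diet its change was 1.12 (limma adjusted p = 0.0769). Ankrd23 rose on the BCAA-free diet by 0.72 (limma adjusted p = 0.0345), and its change on the control diet was 0.55 (limma adjusted p = 0.0664). The Ankrd23 call was lost without BCAA-free TAC 3 and without each BCAA-free sham library, the highest adjusted p being 0.115.

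Xirp2 (chr2:67446002-67526614, plus strand, 9 merged exons), which is controlled by MEF2A in mouse muscle, rose with TAC on the control diet. It had 90595, 59486 and 75579 normalized reads in BCAA-free TAC hearts, 91552, 168164 and 87657 in control diet TAC hearts, 52181, 47877 and 51132 in BCAA-free sham, and 49138, 58651 and 55157 in control diet sham. Control diet TAC 2 was far above the other 11 libraries, and every TAC library lay above every sham library. The log2 change on the control diet was 1.02 ± 0.227, a fold of 2.03 (limma adjusted p = 0.0182). The call was lost without control diet sham 1, 2 or 3, with limma adjusted p-values of 0.0788, 0.0532 and 0.0591. On the BCAA-free diet the change was 0.55 ± 0.143 (limma adjusted p = 0.0693). That difference passed without BCAA-free TAC 1 (limma adjusted p = 0.0356), without BCAA-free TAC 2 (limma adjusted p = 0.000304) and with DESeq2 on the recovered reads (adjusted p = 9.77e-06). It also passed by limma with a block for the replicate number. The authors' deposited table also gives it an adjusted p of 9.87e-06. In TAC hearts the diets differed by -0.57 ± 0.246 (limma adjusted p = 0.145), while DESeq2 gave an adjusted p of 0.0428. An adjusted p of 0.0459 stands in the authors' deposited table.

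Xirp1 (chr9:120013755-120023598, minus strand, 3 merged exons), the smaller Xin protein, was called in none of the comparisons by limma, edgeR or DESeq2. It had 18908, 16517 and 22488 normalized reads in BCAA-free TAC hearts, 20901, 26998 and 17009 in control diet TAC hearts, 17642, 19650 and 16233 in BCAA-free sham, and 13359, 18826 and 19315 in control diet sham. All 4 groups overlapped. The log2 change with TAC was 0.10 ± 0.115 on the BCAA-free diet (limma adjusted p = 0.666) and 0.32 ± 0.191 on the control diet (limma adjusted p = 0.305). Of the pair of Xin genes, Xirp2 was the one with a TAC change that passed the test, though the difference between the paralogues was not tested.

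Fhl1 (chrX:56731787-56793346, plus strand, 13 merged exons) was the 1 member called for a TAC response that differed between the diets. Its protein binds the spring region of titin that cardiac muscle carries, and links it to growth signalling. It had 13086, 11746 and 13411 normalized reads in BCAA-free TAC hearts, 18464, 25703 and 29650 in control diet TAC hearts, 9042, 9928 and 8408 in BCAA-free sham, and 9418, 8986 and 8867 in control diet sham. Every control diet TAC library lay above every BCAA-free TAC library, which in turn lay above every sham library, and the sham diets overlapped. The group means were 12748 ± 882 in BCAA-free TAC, 24606 ± 5673 in control diet TAC hearts, 9126 ± 764 in BCAA-free sham and 9090 ± 290 in control diet sham hearts.

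With TAC, Fhl1 rose by a log2 of 0.48 ± 0.0703 on the BCAA-free diet (limma adjusted p = 0.00204) and by 1.40 ± 0.165 on the control diet (limma adjusted p = 0.00126), a fold of 2.64 on the control diet. The TAC response was smaller on the BCAA-free diet by 0.92 on the log2 scale (-0.92 ± 0.192, limma adjusted p = 0.0456), place 110 by p of 17493 genes. Of the 8 members it was the 1 called for this difference, where 0.675% of genes were, 0.171% with a larger response on the BCAA-free diet and 0.503% with a smaller one. That call was close to the threshold: it held without control diet TAC 1 or control diet TAC 3 and was lost without any of the other 10 libraries. Over all 12 such fits the difference ran from -1.12 to -0.77 and the adjusted p from 0.0109 to 0.154. In TAC hearts alone Fhl1 was lower on the BCAA-free than on the control diet by -0.92 ± 0.165, a ratio of 0.529 (limma adjusted p = 0.0058), a call that held without any 1 library. In sham hearts the diets differed by 5.3e-05 ± 0.0666 (limma adjusted p = 1). The difference between TAC responses and the diet comparison in TAC hearts share the TAC libraries, so they are not separate evidence.

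Fhl2 (chr1:43123074-43196984, minus strand, 7 merged exons), a LIM-only protein abundant in the heart that binds titin and calcineurin, changed by less. It had 140701, 154513 and 144856 normalized reads in BCAA-free TAC hearts, 126794, 114133 and 160823 in control diet TAC hearts, 129794, 117598 and 124841 in BCAA-free sham, and 143241, 120099 and 122118 in control diet sham. The BCAA-free TAC libraries lay above the BCAA-free sham libraries, and every other pair of groups overlapped. With TAC it rose on the BCAA-free diet by 0.24 ± 0.0601 (limma adjusted p = 0.0345), a call that held without BCAA-free TAC 1 and was lost without each of the other 5 libraries (limma adjusted p from 0.0585 to 0.139). Its change on the control diet was 0.04 ± 0.156 (limma adjusted p = 0.892), and it ran between -0.11 and 0.15 as single libraries were left out.

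Another LIM-only gene, Fhl3, was looked at after its values were seen. It rose with TAC on both diets, by a log2 of 0.50 on the BCAA-free diet (limma adjusted p = 0.0181) and 0.70 on the control diet (limma adjusted p = 0.00468). The first of these calls was lost without BCAA-free TAC 1, BCAA-free TAC 3, BCAA-free sham 1 or BCAA-free sham 3, with an adjusted p of at most 0.0697. In TAC hearts Fhl3 was lower on the BCAA-free than on the control diet by -0.52 (limma adjusted p = 0.0214), as Fhl1 was. This call was lost without BCAA-free TAC 2, BCAA-free TAC 3, control diet TAC 1 or control diet TAC 2, with an adjusted p of at most 0.108.

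Rcan1 (chr16:92391953-92470867, minus strand, 8 merged exons) separated the diets after TAC. It had 8094, 5853 and 6371 normalized reads in BCAA-free TAC hearts, 11162, 11119 and 13819 in control diet TAC hearts, 5921, 5967 and 6026 in BCAA-free sham, and 9244, 5444 and 7967 in control diet sham. Every control diet TAC library lay above all 9 other libraries, and those other 3 groups overlapped. The BCAA-free sham libraries were nearly equal, with a coefficient of variation of 0.885%, while the control diet sham libraries spread by 25.6%. In TAC hearts Rcan1 averaged 6773 ± 1174 on the BCAA-free and 12033 ± 1546 on the control diet, a log2 difference of -0.83 ± 0.143 and a ratio of 0.562 (limma adjusted p = 0.00482). This call held without any 1 library.

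Rcan1 rose with TAC on the control diet by 0.69 ± 0.191 (limma adjusted p = 0.041), and on the BCAA-free diet its change was 0.16 ± 0.102 (limma adjusted p = 0.389). The call on the control diet depended on the libraries: it was lost without control diet TAC 1 (adjusted p = 0.0939), control diet TAC 2 (adjusted p = 0.0617), control diet TAC 3 (adjusted p = 0.129), control diet sham 2 (adjusted p = 0.107) or control diet sham 3 (adjusted p = 0.0856), all by limma. Over the 6 fits with a library left out the change ran from 0.47 to 0.86. The difference between the TAC responses was -0.53 ± 0.239 (limma adjusted p = 0.329), so a difference between the diets in the response was not shown. In sham hearts the diets differed by -0.31 ± 0.193 (limma adjusted p = 0.45), and without control diet sham 2 by -0.52 (limma adjusted p = 0.00367). Reads were counted per gene, so they cannot separate transcripts from the upstream start and from the internal start that carries the 3 NFAT cores. The related inhibitors Rcan2 and Rcan3 passed the test in none of the limma comparisons, with log2 changes from TAC of -0.02 and -0.18 on the BCAA-free diet and -0.12 and 0.09 on the control diet.

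Csrp3 (chr7:48830398-48848033, minus strand, 7 merged exons) codes for muscle LIM protein, a Z-disc component whose loss causes dilated cardiomyopathy in mice. It had 123883, 125153 and 113952 normalized reads in BCAA-free TAC hearts, 92746, 105222 and 130062 in control diet TAC hearts, 89940, 84484 and 92429 in BCAA-free sham, and 90543, 91448 and 83299 in control diet sham. TAC libraries lay above sham libraries on each diet, by a wide gap on the BCAA-free diet and a narrow one on the control diet, where TAC 1 lay just above the highest sham library. It rose with TAC on the BCAA-free diet by 0.44 ± 0.0594 (limma adjusted p = 0.0013), a call that held without any 1 library. The change on the control diet was 0.28 ± 0.145 (limma adjusted p = 0.227), with the TAC libraries spread by a coefficient of variation of 17.4%, against 5.07% in BCAA-free TAC hearts. The TAC responses differed by 0.15 ± 0.158 (limma adjusted p = 0.713), and in TAC hearts the diets by 0.16 ± 0.144 (limma adjusted p = 0.475).

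Cmya5 (chr13:93040713-93144724, minus strand, 13 merged exons) fell with TAC and was higher on the BCAA-free diet. It had 63239, 68864 and 68727 normalized reads in BCAA-free TAC hearts, 41699, 42104 and 35612 in control diet TAC hearts, 98873, 98375 and 102329 in BCAA-free sham, and 69276, 79027 and 81301 in control diet sham. None of the 4 groups overlapped another, in the order BCAA-free sham, control diet sham, BCAA-free TAC and control diet TAC from high to low. It averaged 66943 ± 3209 in BCAA-free TAC and 99859 ± 2154 in BCAA-free sham hearts, a log2 change of -0.58 ± 0.0561 (limma adjusted p = 0.000264), place 13 by p of 17611 genes. In control diet TAC hearts it averaged 39805 ± 3637, against 76534 ± 6388 in control diet sham hearts, a log2 change of -0.95 ± 0.119 and a ratio of 0.517 (limma adjusted p = 0.00174). Both calls held without any 1 library.

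The diet moved Cmya5 in TAC hearts by 0.76 ± 0.113, a fold of 1.69 (limma adjusted p = 0.00231), also in every fit with a library left out. In sham hearts it was higher on the BCAA-free diet by 0.38 ± 0.0686, a fold of 1.31 (limma adjusted p = 0.0182). That call was lost without BCAA-free sham 1 (adjusted p = 0.0932), 2 (adjusted p = 0.0638) or 3 (adjusted p = 0.0882) by limma, and in the fit of all 12 libraries (adjusted p = 0.0598). The TAC responses differed by 0.37 ± 0.126 (limma adjusted p = 0.181), which did not pass. Cmya5 was thus the 1 member called for diet in both surgeries.

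Across the diet comparisons, 3 of the 8 members passed in TAC hearts, where 16.8% of 18039 genes did, and 1 of 8 in sham hearts, where 3.54% of 17862 genes did. In TAC hearts Fhl1 and Rcan1 were lower and Cmya5 higher on the BCAA-free diet, and these were the members whose diet groups did not overlap, against 36.2% of all genes. Without control diet TAC 3 the count in TAC hearts became 5, as Fhl2 and Csrp3 were then higher on the BCAA-free diet by 0.30 each (limma adjusted p = 0.0215 and 0.0205). In sham hearts Cmya5 was the 1 member without overlap, against 26.1% of genes, and the count ran from 0 to 2 as single libraries were left out. The median log2 difference of the 8 was -0.27 in TAC and -0.02 in sham hearts, with medians of 0.02 and 0.0019 over all genes. Members that did not pass in TAC hearts included Xirp1, whose log2 difference was -0.15 ± 0.173 (limma adjusted p = 0.609), and Fhl2, at 0.15 ± 0.147 (limma adjusted p = 0.525). In sham hearts Ankrd1 differed by -0.06 ± 0.263, Xirp1 by 0.07 ± 0.153, Xirp2 by -0.11 ± 0.0724, Fhl2 by -0.05 ± 0.0752 and Csrp3 by 0.01 ± 0.0614, with limma adjusted p-values from 0.451 to 0.971. The TAC responses of Xirp1, Xirp2 and Fhl2 differed between the diets by -0.22 ± 0.242, -0.47 ± 0.292 and 0.20 ± 0.171 (limma adjusted p = 0.742, 0.509 and 0.656). The comparison of diets in TAC hearts shares the control diet TAC libraries with the TAC comparison on the control diet.

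**Figure D3:**
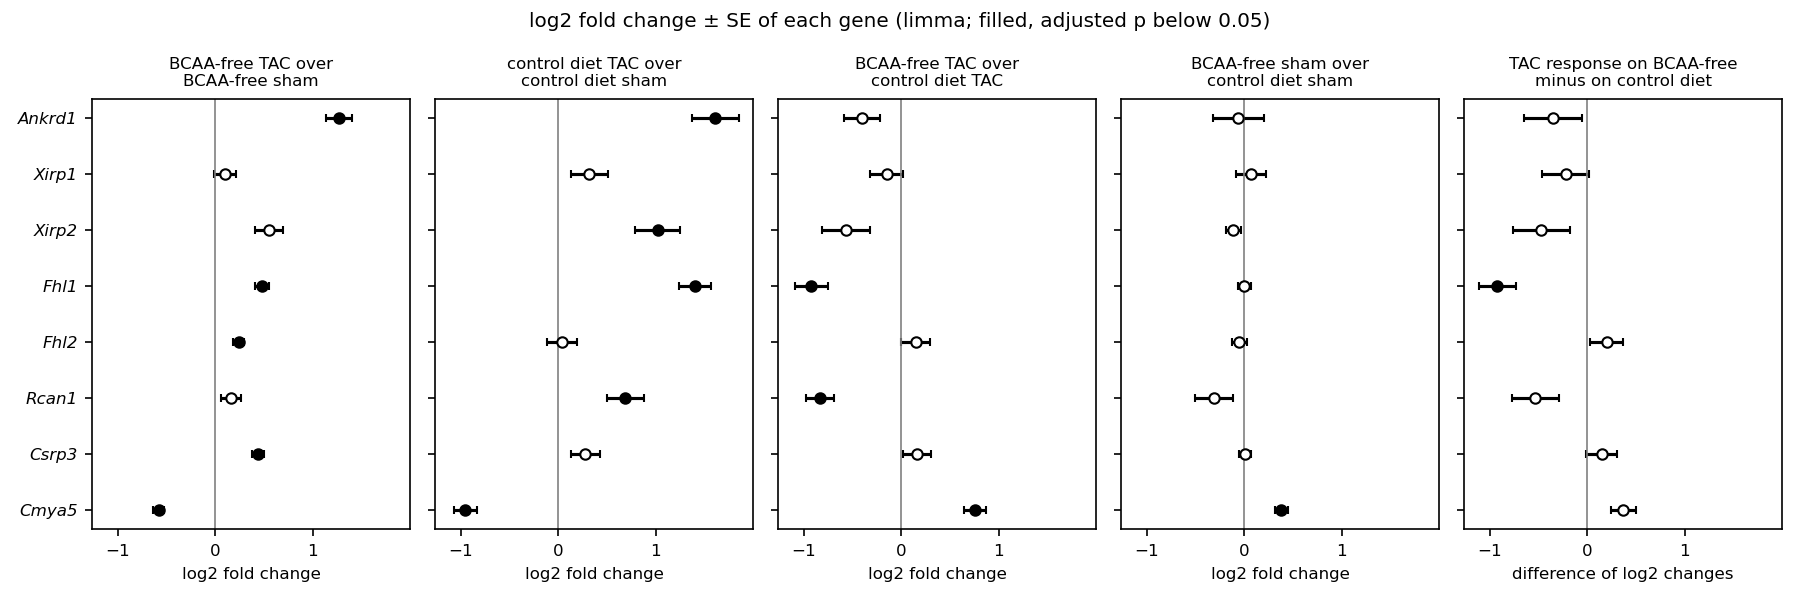
Log2 fold change with its SE for each gene in the 4 pairwise comparisons, and in the last panel the TAC response on the BCAA-free diet minus that on the control diet; filled points have a limma adjusted p below 0.05. Cmya5 is filled in all 4 pairwise panels, Ankrd1 and Fhl1 in both TAC panels, and Fhl1 alone in the last panel at -0.92.

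Markers of several cell types differed between the groups along with the members. The 9 cardiomyocyte markers summed to 7696017 to 8003753 normalized reads in BCAA-free TAC, 4920589 to 6131818 in control diet TAC hearts, 7056057 to 7692554 in BCAA-free sham and 6702692 to 6980977 in control diet sham hearts. The control diet TAC hearts, lowest in Cmya5, were also lowest in this sum. The markers did not all move alike. Actc1 was highest there, averaging 747890, against 714290 in BCAA-free TAC, 489807 in BCAA-free sham and 629171 in control diet sham hearts. The other markers were lowest there by mean. For TAC on the control diet, Pln was the 1 marker of this list called (-0.65, limma adjusted p = 0.0162). For diet in TAC hearts, limma called 6 of the 9 higher on the BCAA-free diet, where 6.23% of all genes were called higher. The 8 fibroblast markers summed to 82195 to 101019 in BCAA-free TAC, 190882 to 294090 in control diet TAC hearts, 64144 to 69688 in BCAA-free sham and 75543 to 98050 in control diet sham hearts. Most of that sum was collagen RNA in control diet TAC hearts, with means of 35980 for Col1a1, 55119 for Col1a2 and 90704 for Col3a1. Another fibroblast marker, Pdgfra, averaged 3601 in BCAA-free TAC, 3858 in control diet TAC hearts, 4169 in BCAA-free sham and 3809 in control diet sham hearts. On the control diet 6 of the 8 rose with TAC, and the changes of Pdgfra (-0.01, limma adjusted p = 0.961) and Dpt (0.38, limma adjusted p = 0.11) did not pass. The 8 macrophage markers summed to 24573 to 31532, 42751 to 45306, 20944 to 23928 and 22572 to 29827 in the same order of groups. Control diet TAC hearts, highest in Fhl1 and Rcan1, were thus highest in both the fibroblast and the macrophage sums. For diet in TAC hearts, limma called 5 of the 8 fibroblast and 8 of the 8 macrophage markers lower on the BCAA-free diet. In that comparison 10.5% of all genes were called lower.

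Set against 1000 reads of the cardiomyocyte markers, the order of the diets in TAC hearts differed from that in normalized reads for some members. This divisor was higher in every BCAA-free TAC library than in every control diet TAC library, so a gene already lower on the BCAA-free diet could only come out lower still. A gene only slightly higher on the BCAA-free diet would come out lower by the division alone. The shifts below follow in part from the divisor and are no separate result on the members. Fhl1 came to 1.62 ± 0.134 in BCAA-free TAC hearts, 4.43 ± 1.06 in control diet TAC hearts, 1.24 ± 0.142 in BCAA-free sham and 1.34 ± 0.062 in control diet sham hearts. Rcan1 came to 0.863 ± 0.168, 2.15 ± 0.178, 0.813 ± 0.0392 and 1.11 ± 0.305 in the same order, and like Fhl1 this gave the order already seen in normalized reads. Fhl2 and Csrp3, whose log2 differences in normalized reads were 0.15 and 0.16, turned by this division from higher to lower on the BCAA-free diet. Fhl2 came to 18.3 to 19.3 in BCAA-free TAC hearts, against 22.1 to 26.2 in control diet TAC hearts, and Csrp3 to 14.4 to 16.1, against 16.2 to 21.4. Ankrd1 and Xirp2, already lower by mean on the BCAA-free diet but with overlap in normalized reads, did not overlap after the division. Ankrd1 came to 30 to 40.5 in BCAA-free TAC hearts, against 48.6 to 84.4 in control diet TAC hearts, and Xirp2 to 7.43 to 11.8, against 14.3 to 34.2. Xirp1 overlapped, at 2.06 to 2.85 in BCAA-free TAC and 2.77 to 5.49 in control diet TAC hearts. Cmya5, apart in normalized reads, also overlapped, at 8.22 to 8.71 in BCAA-free TAC and 5.81 to 8.56 in control diet TAC hearts. Normalized reads are scaled by a factor per library, which is not the library total. In CPM, Fhl2 came to 1485, 1637 and 1531 in BCAA-free TAC hearts, against 1584, 1467 and 1900 in control diet TAC hearts. Csrp3 came to 1307, 1326 and 1204, against 1158, 1352 and 1536. Both were thus lower by mean on the BCAA-free diet in CPM, with overlap. The direction of the diet difference in TAC hearts thus depended on the scale for Fhl2 and Csrp3, which were not called with all libraries. Whether the diets overlapped depended on it for Ankrd1, Xirp2, Fhl2, Csrp3 and Cmya5. Fhl1 and Rcan1 were lower on the BCAA-free diet without overlap on each of these scales. In CPM Fhl1 came to 124 to 142, against 231 to 350, and Rcan1 to 62 to 85.4, against 139 to 163. Cmya5 was higher without overlap in CPM, at 667 to 730, against 421 to 541. The part of the cell types in these differences was not tested.

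The ranges of the remaining marker lists overlapped between most groups. Between BCAA-free TAC and BCAA-free sham hearts, however, the atrial and the smooth muscle sums did not overlap and were higher after TAC. In that comparison limma called 0 atrial markers and DESeq2 3, and limma called 3 smooth muscle markers. Between the sham diets the smooth muscle and the endothelial sums did not overlap and were lower on the BCAA-free diet, with 1 marker of each called lower by limma. On the control diet the skeletal muscle sum was higher after TAC without overlap, and Tnnt3 was the 1 marker of that list called (2.76, limma adjusted p = 0.00314). The 5 of 6 atrial markers measured in every library (without Bmp10) ran from 25283 to 29470 in BCAA-free TAC and 16790 to 39442 in control diet TAC hearts. They ran from 8686 to 19086 in BCAA-free sham and 5485 to 29025 in control diet sham hearts. The 6 smooth muscle markers ran from 30267 to 35935, 29138 to 46152, 27555 to 29466 and 32528 to 38449, and the 6 endothelial markers from 52234 to 56335, 45110 to 68731, 52101 to 55956 and 59441 to 70961, in that order. The skeletal muscle markers summed to 402 to 480 in BCAA-free TAC, 437 to 971 in control diet TAC hearts, 356 to 495 in BCAA-free sham and 300 to 397 in control diet sham hearts, without Myh1, Myh2, Myh4 and Myf6, which were not measured in all libraries. No marker of these 7 lists that was measured in every library was at 0 in any library. Bmp10, tested in some comparisons only, is outside this count.

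Of 26 other genes of calcineurin and NFAT signalling that could be tested (of 27 listed, without Myoz3), 1 rose and 1 fell with TAC on the BCAA-free diet, where 3.31% of genes were called higher and 4.41% lower. These were Myoz2, the calcineurin-binding Z-disc protein calsarcin-1 (log2 0.42, limma adjusted p = 0.00101), and the transcription factor Mef2a (-0.35, limma adjusted p = 0.00312), both called without any 1 library. On the control diet 2 rose and 1 fell, where 9.17% of genes were called higher and 5.64% lower: Cib1, a calcium-binding protein that binds calcineurin, by 0.62 (limma adjusted p = 0.00578), the calmodulin gene Calm2 by 0.39 (limma adjusted p = 0.0478) and Mef2a by -0.42 (limma adjusted p = 0.026). Cib1 kept its call without any 1 library. The calls of Calm2 and Mef2a held in 1 of 6 such fits, and the count was 1 without control diet TAC 1, sham 1 or sham 3 and 8 without control diet TAC 3. The list's median was 0.0041 on the BCAA-free and 0.00077 on the control diet, beside 0.01 and -0.02 over all genes.

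In TAC hearts 1 gene of the calcineurin list was higher and 3 lower on the BCAA-free diet, where 6.23% of genes were called higher and 10.5% lower. The lower ones were Cib1 (-0.48, limma adjusted p = 0.0142), Fkbp1a, the immunophilin FKBP12 (-0.50, limma adjusted p = 0.021), and Calm2 (-0.40, limma adjusted p = 0.0404). The count of 4 became 1 without BCAA-free TAC 1, 0 without BCAA-free TAC 2, BCAA-free TAC 3 or control diet TAC 1, 2 without control diet TAC 2, and 10 without control diet TAC 3. In sham hearts 1 gene was lower on the BCAA-free diet, Akap5, an anchoring protein for calcineurin (-1.08, limma adjusted p = 0.0063), in every fit with a library left out. For the difference between TAC responses limma called 0 of the list, with 6 genes at an unadjusted p below 0.05, edgeR called 0 and DESeq2 3.

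Among the other genes of the Z-disc, the costamere and titin's partners, most calls with TAC were rises. Of 43 tested (of 44 listed, without Fhl5), 15 rose and 2 fell with TAC on the BCAA-free diet, where 3.31% of all genes were called higher and 4.41% lower. Likewise 11 rose and 1 fell on the control diet, where 9.17% of all genes were called higher and 5.64% lower. The list's median was 0.16 on the BCAA-free and 0.10 on the control diet, beside 0.01 and -0.02 over all genes. On the BCAA-free diet the smallest p-values were those of Csrp2 (log2 0.86, limma adjusted p = 0.000353), which codes for a smooth muscle relative of Csrp3, Nebl or nebulette, which ties actin to the Z-disc (-0.42, limma adjusted p = 0.000808), and Pdlim5, a PDZ-LIM protein of the Z-disc (0.42, limma adjusted p = 0.00101). All 3 were called without any 1 library. The first on the control diet were Csrp2 (1.55, limma adjusted p = 0.000785), Synpo2l, a Z-disc actin binder (1.17, limma adjusted p = 0.00293), and the intermediate filament desmin, Des (0.86, limma adjusted p = 0.00294), each also called without any 1 library. The count of 17 on the BCAA-free diet became 11 without BCAA-free TAC 1 or TAC 3, 9 without sham 1 and 8 without sham 3. The count of 12 on the control diet ran from 9 to 15.

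In TAC hearts 5 Z-disc genes were higher and 7 lower on the BCAA-free diet, where 6.23% of all genes were called higher and 10.5% lower, and the list's median was 0.07, beside 0.02 over all genes. Csrp2 (-0.93, limma adjusted p = 0.00111) and Csrp1 (-0.58, limma adjusted p = 0.00331) were lower, and the M-band gene Myom2 was higher (0.80, limma adjusted p = 0.00304), all 3 in every fit with a library left out. The count of 12 became 3 without BCAA-free TAC 2, 6 without BCAA-free TAC 3 and 20 without control diet TAC 3. In sham hearts 1 was higher and 3 lower, where 1.27% and 2.27% of genes were called, with Pdlim7 (-0.41, limma adjusted p = 0.0196), Csrp1 (-0.33, limma adjusted p = 0.0251) and Myot or myotilin (0.28, limma adjusted p = 0.0351) first. Their calls were lost without some of the 6 libraries, with adjusted p-values of up to 0.0867, 0.109 and 0.149. The count of 4 became 1 without BCAA-free sham 1 or 2, 0 without BCAA-free sham 3 or control diet sham 3, and 7 without control diet sham 2. For the difference between TAC responses limma called 0 of the 43, with 10 at an unadjusted p below 0.05, edgeR called 0 and DESeq2 4.

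Of 18 genes of the YAP/TEAD and SRF/MRTF response to mechanical tension, 2 rose with TAC on the BCAA-free diet, skeletal actin Acta1 (3.02, limma adjusted p = 0.0171) and calponin Cnn1 (1.26, limma adjusted p = 0.0432). In that comparison 3.31% of all genes were called higher and 4.41% lower. Each call held in 2 of 6 fits with a library left out, and the count became 1 without BCAA-free sham 1 and 0 without BCAA-free sham 3. On the control diet 4 rose and 1 fell, beside 9.17% and 5.64% of all genes, with 5 to 6 called in the fits with a library left out. Cnn1 rose by 1.83 (limma adjusted p = 0.00071), Acta1 by 2.53 (limma adjusted p = 0.00317) and the YAP target Ctgf by 1.81 (limma adjusted p = 0.00336), the calls of Acta1 and Ctgf being lost without control diet TAC 3 (adjusted p = 0.061 and 0.0602). Named outside the rule, after their values were seen, Amotl2 was the 1 that fell (-0.77, limma adjusted p = 0.00784). Cyr61 did not pass (0.10, limma adjusted p = 0.794). In TAC hearts 1 was higher and 4 lower on the BCAA-free diet, beside 6.23% and 10.5% of all genes, among them Ctgf (-1.31, limma adjusted p = 0.0134), Cnn1 (-0.88, limma adjusted p = 0.0166) and the YAP relative Wwtr1 (-0.41, limma adjusted p = 0.017). That count of 5 became 2 without BCAA-free TAC 2, BCAA-free TAC 3 or control diet TAC 1. Each of the calls of Ctgf, Cnn1 and Wwtr1 was lost without at least 1 library, with adjusted p-values of up to 0.16 for Ctgf, 0.0721 for Cnn1 and 0.109 for Wwtr1. The 1 higher gene was Amotl2 (0.65, limma adjusted p = 0.0192), called in 2 of 6 fits with a library left out.

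In sham hearts Acta1 (-1.55, limma adjusted p = 0.00322) and Wwtr1 (-0.33, limma adjusted p = 0.037) were lower on the BCAA-free diet, where 2.27% of all genes were called lower and 1.27% higher. The call of Acta1 held without any 1 library, and the count was 1 without any library other than control diet sham 2. The list's medians were -0.03 and -0.0044 for TAC on the BCAA-free and the control diet, and -0.19 and -0.18 for the diet in TAC and in sham hearts, beside 0.01, -0.02, 0.02 and 0.0019 over all genes. For the difference between TAC responses limma called 0 of the 18, with 1 at an unadjusted p below 0.05, and edgeR and DESeq2 called 0.

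**Figure D4:**
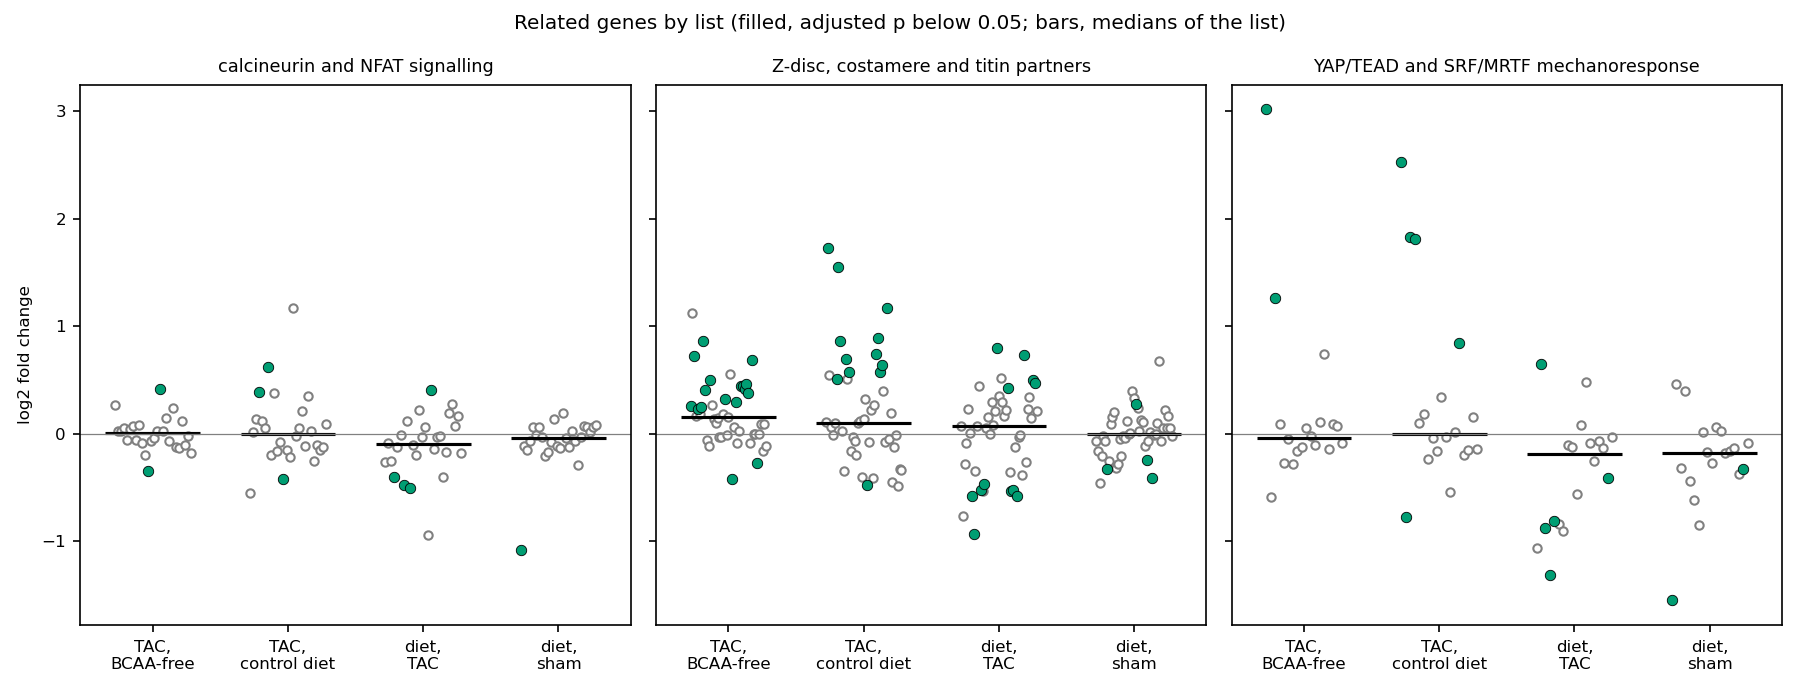
Log2 fold change of each other gene of the 3 lists in the 4 pairwise comparisons (TAC over sham on each diet; BCAA-free over control diet in each surgery); filled points have a limma adjusted p below 0.05 and bars are list medians. Filled points are few in the calcineurin list, and lie mostly above 0 for TAC in the Z-disc list, 15 of 17 on the BCAA-free and 11 of 12 on the control diet.

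Genes whose profile over the 12 libraries was most like a member's were found by the root mean square difference of standardised log2 values, among 12829 genes with a mean of at least 50 normalized reads. For Cmya5 these were Nrd1 (0.144), Atp2a2 (0.149) and Elac1 (0.153), where the median gene lay near 1.4. Atp2a2, which codes for the calcium pump SERCA2 of the sarcoplasmic reticulum, changed with TAC by a log2 of -0.41 on the BCAA-free diet (limma adjusted p = 0.00672) and -0.82 on the control diet (limma adjusted p = 0.00426). In TAC hearts it was higher on the BCAA-free diet by 0.69 (limma adjusted p = 0.00793), and in sham hearts its difference was 0.28 (limma adjusted p = 0.0573). Nearest to Xirp2 were Atp8a2 (0.153), the prion protein gene Prnp (0.203) and the calcium channel subunit Cacnb1 (0.267). Nearest to Fhl1 were the annexin Anxa7 (0.196), Gdf6 (0.241) and the annexin Anxa1 (0.242).

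For Ankrd1 the nearest profiles were Cpeb1 (0.239), Synpo2l (0.255) and Sorbs2 (0.264), and for Rcan1 Ckap4 (0.263), Gatm (0.278) and Tmsb4x (0.278). Csrp3 was nearest to Perp (0.27), the cardiac troponin C gene Tnnc1 (0.278) and Dnpep (0.31). Fhl2, with Itgb1bp2 (0.277) and Fuom (0.329), and Xirp1, with Dusp27 (0.387), Setd7 (0.407) and Fam168a (0.443), had no neighbour closer than these. Among the members themselves the most alike profiles were those of Ankrd1 and Xirp2 (0.502), Fhl1 and Ankrd1 (0.514) and Fhl1 and Xirp2 (0.544), and the least alike those of Fhl1 and Cmya5 (1.97). The profiles share libraries and their spread, and likeness says nothing of common control.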

How the data were processed

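RNA extracted with Trizol from mouse hearts and selected for poly(A) was sequenced in 12 libraries, per the labels' protocols. Tools listed in the submitters' processing notes are DESeq2 (no version), STAR 2.5.2b, Trimmomatic 0.36 and Subread 1.5.2, with the builds GRCm38 and mm10. The authors deposited 4 tables, 1 per pair of groups, whose signal columns are normalized read counts per library. The deposited tables also give the authors' log2 fold changes and p-values, used only where named. All 431838 deposited values came out as whole reads within 0.0001 after removing each library's scaling factor. The tables hold genes with at least 61 reads over 6 libraries.

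Because the values are normalized, limma-trend with robust empirical Bayes was the main test (limma 3.58.1, R 4.3.3), run on log2(value + 1), which understates changes of low genes. Within each table a gene entered the test at a mean of 10 or more, which all 8 members reached, with Benjamini-Hochberg adjustment over all genes and a threshold of 0.05. A model of all 12 libraries gave the difference between TAC responses. It takes 1 spread per gene for all 4 groups, although the groups differed in spread. For Fhl1 the coefficient of variation was 3.19% in control diet sham and 23.1% in control diet TAC hearts. Printed values per library were rescaled with joint factors for all 12. Exon lengths and positions are from a GRCm38 annotation (GENCODE M21), promoters from RefSeq (GRCm38.p6).

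Members and gene lists were chosen with earlier results of these data known. Besides the 8 members, the 3 called genes with the smallest p of each pathway list and the 3 genes with the nearest profile are named, and genes outside this rule are said to be so. A gene that this rule names is not reported here. The script was tested on simulated data. Alternatives were TMM factors (edgeR 4.0.16), DESeq2 1.42.0 and edgeR on the recovered reads, pseudocounts of 0.5 and 5, no filter or a mean of at least 50, a replicate block, 1 fit of all 12 libraries, and leaving out each library. Counts for the pathway lists without each library were added after seeing the data.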

Additional observations from a re-analysis of the deposited data

Results flagged for a closer look

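The response of Fhl1 to TAC differed between the diets by -0.92 on the log2 scale (limma adjusted p = 0.0456), smaller on the BCAA-free than on the control diet. It was picked out because the test of the difference itself passed. All 3 BCAA-free TAC libraries lay below all 3 control diet TAC libraries. The adjusted p ran from 0.0109 to 0.154 as single libraries were left out.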

How the results depend on the processing

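Leaving out 1 library lost the call of a member in 26 of 288 values, gained one in 5 and turned the sign of 16 values that were not called. Genes called ran from 546 to 1257 for TAC on the BCAA-free diet, 1354 to 4678 for TAC on the control diet, 1195 to 6025 for diet in TAC hearts, 50 to 1071 for diet in sham hearts and 16 to 1755 for the difference of TAC responses. Control diet TAC 3 was the library left out at 4678, 6025 and 1755. Members called ran in that order from 4 to 6, 3 to 4, 3 to 5, 0 to 2 and 0 to 1. The log2 values that turned ran from -0.02 to 0.21 (Xirp1, TAC, BCAA-free diet), -0.11 to 0.15 (Fhl2, TAC, control diet), -0.30 to 0.02 (Xirp1, diet, TAC hearts) and, for diet in sham hearts, -0.32 to 0.11 (Ankrd1), -0.10 to 0.16 (Xirp1), -0.06 to 0.06 (Fhl1), -0.09 to 0.03 (Fhl2) and -0.04 to 0.04 (Csrp3); TMM factors gave Fhl1 there -0.0015. One fit of all 12 libraries called 302 genes and 2 members for TAC on the BCAA-free diet (1360 and 5 when fitted alone), 4404 genes for TAC on the control diet (2710), and 149 genes and 0 members for diet in sham hearts (633 and 1). DESeq2 called 1522 genes for diet in sham hearts and 824 for the difference of TAC responses (118). Replicate numbers did not pair the libraries, as deviations of same-numbered libraries correlated between -0.17 and 0.03. With the replicate block 623 genes were called for TAC on the BCAA-free diet, 276 for diet in sham hearts, and 50 genes and 0 members for the difference of TAC responses. The cause was not tested. The other alternatives kept the counts of called genes and members within 1.5 times.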
